A study of Mus musculus with 14 samples.

Results

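Acta2, Tagln, Tpm1, Tpm2, Vcl and Ccn1 encode proteins of the contractile actin cytoskeleton, of the adhesions it pulls on and, for Ccn1, of a signal in the surrounding matrix. They were chosen by gene name, with earlier results of these data known. Each of the 6 genes had 1 transcript among the 1399 transcripts of the count tables, and all 6 were followed across 14 libraries of polyadenylated RNA from mouse embryonic fibroblasts (MEFs), a cultured connective tissue cell.

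The 14 libraries formed 7 groups of 2, all labelled wild type (WT) in genotype. In 8 libraries, CTNS-KD cells had been transfected with sh-CTNS, a short hairpin RNA against the gene for cystinosin. CTNS-KD-rescue cells had received the same hairpin together with a CTNS plasmid, Cysteamine cells were treated with that drug, and NT2 cells were untreated. In the other 6 libraries, Cys cells were starved of cysteine, AA cells were starved of all amino acids, and NT cells were untreated. Cystinosin exports cystine from the lysosome, and cysteamine empties lysosomal cystine by another route. The labels do not pair the untreated groups with the treatments. NT2 was set against Cysteamine, CTNS-KD and CTNS-KD-rescue, and NT against Cys and AA, because of their names, which the file headers also separate. No group is labelled as carrying a control hairpin or an empty plasmid, so loss of cystinosin and the transfection itself cannot be told apart in CTNS-KD against NT2. The labels give no dose, no duration and no word on separate cultures, so the spread behind each p-value is that between libraries and may be technical. Ctns was not analysed here, and the knockdown was therefore not checked.

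Acta2 encodes smooth muscle α-actin, which fibroblasts build into stress fibres when they become contractile. Tagln encodes transgelin, an actin-binding protein of smooth muscle and contractile fibroblasts, and Tpm1 and Tpm2 encode tropomyosins, coiled-coil proteins that lie along actin filaments and govern access of myosin. Vcl encodes vinculin, which couples integrin adhesions and cell junctions to actin under tension. Ccn1, formerly Cyr61, encodes a secreted matricellular protein that binds integrins. Many genes of this kind are targets of serum response factor (SRF), which binds the CArG box and is activated through its actin-sensing cofactors of the MRTF family when actin polymerises. Ccn1 is also a widely used target of YAP and TAZ, coactivators that bind DNA through TEAD factors, whose core motif reads GGAATG in one of its common forms.

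The promoters of Acta2, Vcl and Ccn1 are shown because these 3 genes differed in which changes passed the test described below in the transfected cells. Their windows also carry the motifs of the regulators named above. The windows are RefSeq promoters on the mouse assembly GRCm38.p6, from 250 bases before to 50 bases after the annotated start, written 5′ to 3′ on the strand of the gene. Capitals mark CArG boxes, or sequences with 1 G or C in the A/T core of the box, and GGAATG or its reverse complement CATTCC. The Acta2 window is chr19:34255324-34255623 on the minus strand, the Vcl window is chr14:20929148-20929447 on the plus strand and the Ccn1 window is chr3:145649936-145650235 on the minus strand.
Acta2: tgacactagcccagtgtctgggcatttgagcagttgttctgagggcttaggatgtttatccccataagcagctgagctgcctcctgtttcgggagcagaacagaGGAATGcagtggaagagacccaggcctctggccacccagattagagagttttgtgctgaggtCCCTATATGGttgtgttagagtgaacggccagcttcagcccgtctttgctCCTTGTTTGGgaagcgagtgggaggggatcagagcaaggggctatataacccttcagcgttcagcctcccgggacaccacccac
Vcl: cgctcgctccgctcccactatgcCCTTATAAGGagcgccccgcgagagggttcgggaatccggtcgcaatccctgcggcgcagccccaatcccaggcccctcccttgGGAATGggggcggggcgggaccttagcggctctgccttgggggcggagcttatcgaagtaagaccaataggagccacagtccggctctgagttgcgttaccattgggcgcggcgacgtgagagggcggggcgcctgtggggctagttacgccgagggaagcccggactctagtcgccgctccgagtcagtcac
Ccn1: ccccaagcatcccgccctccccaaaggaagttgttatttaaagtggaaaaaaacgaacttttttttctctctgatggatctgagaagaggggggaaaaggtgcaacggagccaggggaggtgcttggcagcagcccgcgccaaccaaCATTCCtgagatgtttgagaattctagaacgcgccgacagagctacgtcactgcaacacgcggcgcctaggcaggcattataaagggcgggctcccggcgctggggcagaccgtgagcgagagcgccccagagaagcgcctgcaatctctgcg

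In the Vcl window a complete CArG box began at position -227 from the start and GGAATG at -143. The Acta2 window held CArG-like sequences at -84 and -34, each with 1 G or C in the core, and GGAATG at -146. In the Ccn1 window CATTCC began at -103, and TATAAA, which is not capitalised, began at -25. Of 32544 RefSeq promoter windows of the same length searched on both strands, 1.64% held a complete CArG box, 9.96% held one when 1 G or C was allowed (a class that includes the complete boxes), 14.6% held GGAATG and 13.6% held TATAAA. Windows were found for 5 of the 6 genes. GGAATG was in 4 of these 5, a CArG box with at most 1 G or C was in 2, and TATAAA was in 1. The Tpm1 window had GGAATG at -56, but its start lies 5251 bases from that of the counted Tpm1 transcript, and the Tpm2 window had none of these motifs. The counted Acta2 transcript starts 217 bases upstream of the RefSeq start, within the printed window. The Acta2 motifs at -146, -84 and -34 therefore lie downstream of the start of the counted transcript.

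The counted transcripts were Acta2-201, Tagln-201, Tpm1-209, Tpm2-201, Vcl-201 and Ccn1-201, with coding sequences for 377, 201, 245, 284, 1066 and 379 residues. For Tpm1 this is 1 of 21 annotated transcripts, and for Tpm2 1 of 6, so neither stands for the whole gene. Of the stretches of 30 bases in the Acta2 transcript, 1.65% also occurred in transcripts of other genes, most of them the pseudogenes Gm6375 and Actg-ps1 and the cytoplasmic actin gene Actg1. The Tpm2 transcript shared 0.513% of such stretches with Tpm1, and the other 4 transcripts shared none. How the authors assigned reads between isoforms and copies was not stated in the labels.

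Library totals ran from 64530 to 165747 counts in the CTNS-KD-rescue, CTNS-KD, Cysteamine and NT2 libraries, and from 25697 to 51224 in the Cys, AA and NT libraries. No value in the tables was below 1, so they hold part of each library and their totals are not sequencing depths. The transcripts with the highest counts, Luc7l2, Pigl and Pglyrp3, together took 19.8% ± 1.7 of the counts in CTNS-KD-rescue, 15.9% ± 0.10 in CTNS-KD, 7.85% ± 0.18 in Cysteamine and 3.39% ± 0.14 in NT2, against 26.8% ± 8.9 in Cys, 41.9% ± 1.0 in AA and 45.3% ± 13 in NT (SD, n = 2 each). A set of 341 transcripts that were high in NT relative to NT2 took 40.6% ± 1.7 of the counts in CTNS-KD-rescue, 32.3% ± 0.50 in CTNS-KD, 16.8% ± 0.81 in Cysteamine and 9.49% ± 0.15 in NT2 (SD, n = 2 each). They took 47.6% ± 14 of the counts in Cys, 80.8% ± 2.9 in AA and 75.3% ± 16 in NT (SD, n = 2 each). None of the 6 genes belonged to that set, but the Ttn, Cdh1 and Postn transcripts named below did. Of the fibroblast markers, 6 of 14 were listed, among them Vim, Fn1 and Col1a1. Of the markers of smooth muscle, skeletal muscle and epithelium, 1 of 9 (Smtn), 1 of 12 (Ttn) and 1 of 7 (Cdh1) were listed, and none of the 4 endothelial or 6 immune markers. Other markers were not analysed here. The epithelial gene Cdh1 had 1 to 12 counts per library and was at 45.5 ± 29.0 CPM in Cys, 394 ± 309 CPM in AA and 219 ± 107 CPM in NT (SD, n = 2 each). In the other set its level was 40.8 ± 22.7 CPM in CTNS-KD-rescue, 72.6 ± 25.2 CPM in CTNS-KD, 17.8 ± 12.6 CPM in Cysteamine and 14.1 ± 14.3 CPM in NT2 (SD, n = 2 each).

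Levels are given as CPM, counts scaled to a common library total, computed here from the deposited counts with TMM factors. Changes are log2 fold changes from edgeR, with p-values from its quasi-likelihood test adjusted over all 1399 transcripts by the method of Benjamini and Hochberg. The SE was computed here from the edgeR fit, and 95% intervals assume a normal distribution. They are approximate and can be narrower than the test implies. For Tpm1 in AA against NT the interval was -1.47 to -0.01, while the unadjusted p of the quasi-likelihood test was 0.0600. A gene was called when its adjusted p was under 0.05. In NT2, Tpm1 had the highest level per kilobase of transcript, 608 ± 14.1 CPM per kb, followed by Ccn1 at 436 ± 48.0 and Acta2 at 364 ± 33.2 CPM per kb (SD, n = 2 each). Vcl at 224 ± 5.08 and Tagln at 212 ± 22.3 CPM per kb overlapped between libraries, and Tpm2 was lowest at 83.0 ± 0.98 CPM per kb (SD, n = 2 each).

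**Figure D1:**
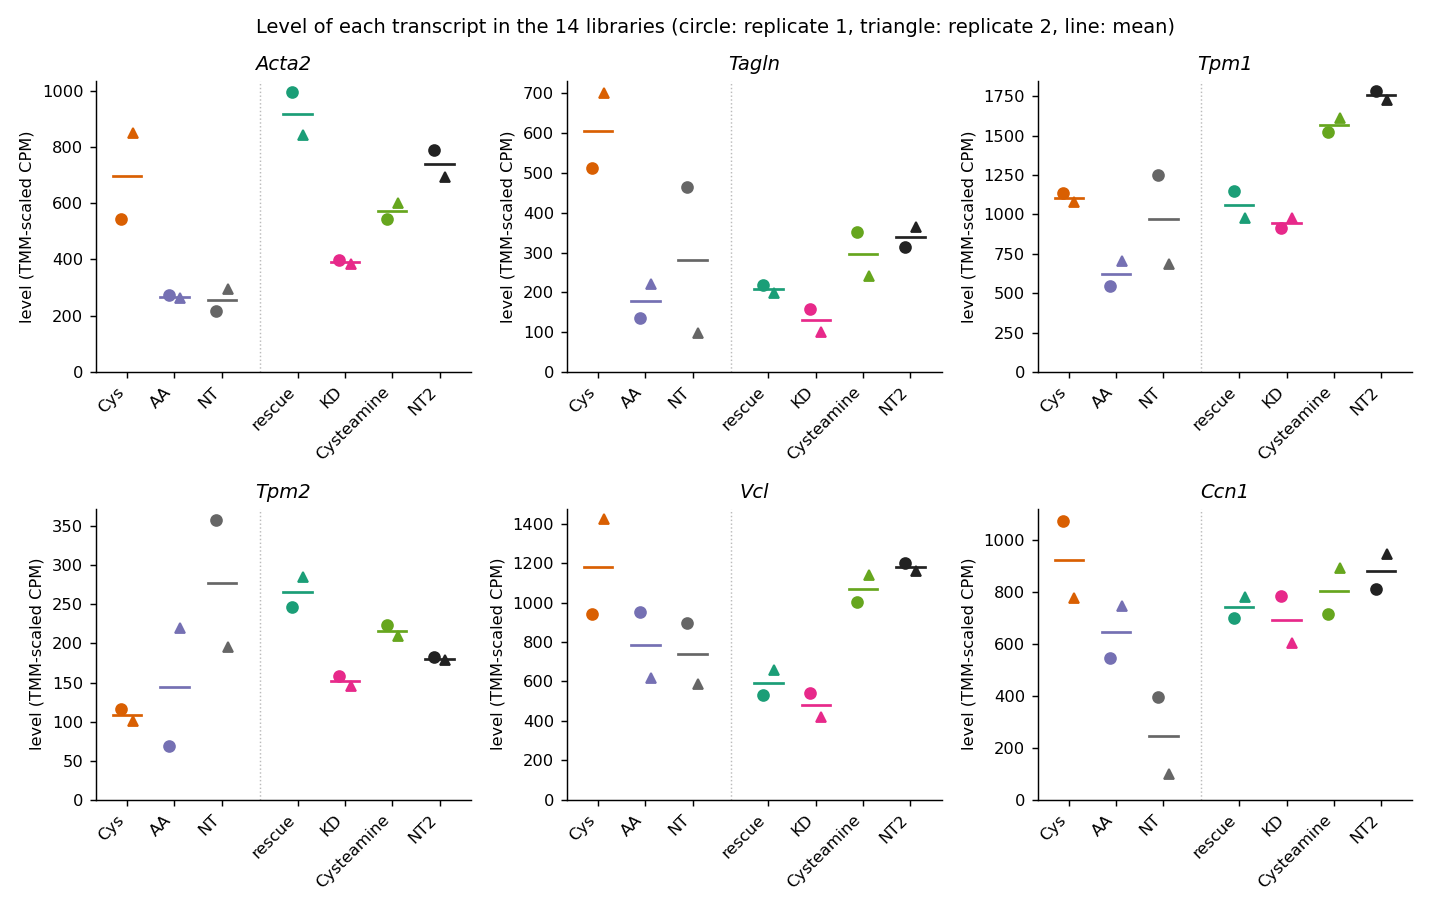
Level of each of the 6 genes in every library, in TMM-scaled CPM on the vertical axis, with 1 panel per gene and groups on the horizontal axis; circles are replicate 1, triangles replicate 2 and horizontal bars are group means (n = 2). In CTNS-KD, Vcl lies at 420 and 542 CPM, below its 1162 and 1200 CPM in NT2. Acta2 in CTNS-KD-rescue, at 842 and 995 CPM, lies above its 692 and 788 CPM in NT2 and its 384 and 399 CPM in CTNS-KD.

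CTNS-KD cells were compared with NT2 cells to ask what lowering cystinosin does to the transcriptome. Transcripts of vinculin, transgelin, smooth muscle α-actin and the tropomyosin gene Tpm1 were lower in the hairpin cells, at 0.411, 0.393, 0.529 and 0.537 times their NT2 levels. Tpm2 and Ccn1 did not pass the test. Of all transcripts, 13.2% were called lower and 17.6% higher, and of the 6 genes 4 were called lower and 0 higher. The median log2 fold change was -0.91 for the 6 genes and 0.09 for all transcripts.

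Vcl, the adhesion linker, had 542 and 420 CPM in CTNS-KD, against 1200 and 1162 CPM in NT2. Both CTNS-KD libraries were low, and the groups lay far apart. The log2 fold change was -1.28 ± 0.23 (adjusted p = 0.000839). The deposited counts behind it were 72 and 46 in CTNS-KD against 303 and 240 in NT2.

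Tagln had 158 and 100 CPM in CTNS-KD, against 313 and 363 CPM in NT2. The groups did not overlap, although replicate 2 of CTNS-KD rests on 11 counts. The log2 fold change was -1.35 ± 0.33 (adjusted p = 0.00501), and without replicate 2 of CTNS-KD the adjusted p was 0.0612. Acta2 had 399 and 384 CPM in CTNS-KD, against 788 and 692 CPM in NT2. The 2 CTNS-KD libraries were nearly equal and both lay below both NT2 libraries. The log2 fold change was -0.92 ± 0.20 (adjusted p = 0.00294).

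The Tpm1 transcript had 911 and 977 CPM in CTNS-KD, against 1786 and 1728 CPM in NT2. The groups were well separated, and the log2 fold change was -0.90 ± 0.21 (adjusted p = 0.00551). Without replicate 1 of NT2 or replicate 1 of CTNS-KD the adjusted p was 0.0545 or 0.0674. The Tpm2 transcript moved little beside it, with 158 and 146 CPM in CTNS-KD against 182 and 179 CPM in NT2. Its libraries did not overlap, yet the log2 fold change of -0.24 ± 0.29 did not pass (adjusted p = 0.563, 95% interval -0.82 to 0.34). Ccn1, the secreted integrin ligand, had 783 and 603 CPM in CTNS-KD, against 812 and 949 CPM in NT2. Replicate 1 of CTNS-KD came close to the lower NT2 library, and the log2 fold change was -0.33 ± 0.22 (adjusted p = 0.259, 95% interval -0.76 to 0.09).

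Other genes of the adhesions moved down with vinculin. Of the gene lists used, the count tables held 5 of 25 focal adhesion genes and 17 of 42 actin and myosin genes. They also held 8 of 21 YAP and TEAD targets and 4 of 11 TGF-β response genes. Of the 5 listed focal adhesion transcripts, 4 were called lower in CTNS-KD and 0 higher, with a median log2 fold change of -0.72. Itgav, the αv integrin chain, was at 219 ± 0.53 CPM in CTNS-KD and 548 ± 42.5 CPM in NT2 (SD, n = 2 each; log2 fold change -1.32 ± 0.23, adjusted p = 0.000573). Ptk2, which encodes focal adhesion kinase, changed by -0.92 ± 0.30 (adjusted p = 0.0281), Zyx, the LIM protein zyxin of adhesions and stress fibres, by -0.72 ± 0.23 (adjusted p = 0.0229), and Tln1, the integrin activator talin, by -0.71 ± 0.22 (adjusted p = 0.0226). Of 17 listed actin and myosin transcripts, 5 were called lower and 0 higher, with a median of -0.34. These were Tagln2, a transgelin paralog (-1.01 ± 0.26, adjusted p = 0.00805), Smtn, the stress fibre protein smoothelin (-0.87 ± 0.24, adjusted p = 0.0113), Myl6, a myosin light chain (-0.62 ± 0.19, adjusted p = 0.0231), Pfn1, the actin monomer binder profilin (-0.62 ± 0.20, adjusted p = 0.0256), and Myh10, a non-muscle myosin heavy chain (-0.64 ± 0.22, adjusted p = 0.0392).

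Ccn1 was set beside 8 other listed targets of YAP and TEAD, of which 2 were called lower in CTNS-KD and 0 higher. Thbs1, the matricellular protein thrombospondin 1, had 136 and 164 CPM in CTNS-KD, against 816 and 799 CPM in NT2. Its libraries were widely separated, with a log2 fold change of -2.43 ± 0.26 (adjusted p = 5.74e-06). Dock5, a Rac exchange factor, changed by -0.96 ± 0.26 (adjusted p = 0.00866). Of 4 listed TGF-β response transcripts, 2 were called lower, the collagen gene Col1a1 (-1.48 ± 0.35, adjusted p = 0.00582) and Loxl2, a collagen cross-linking enzyme (-0.76 ± 0.27, adjusted p = 0.0384).

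Fibroblast markers moved with these genes. Of the 6 listed, 5 were called lower in CTNS-KD, and their summed level was 10156 to 10229 CPM in CTNS-KD and 31228 to 34108 CPM in NT2. Smtn, the only listed smooth muscle marker, was lower, while the skeletal muscle gene Ttn (1.60 ± 0.30, adjusted p = 0.00118) and the epithelial gene Cdh1 (2.39 ± 0.82, adjusted p = 0.0218) were higher. Ttn and Cdh1 belong to the 341 transcripts chosen as high in NT relative to NT2. That set took a larger share of the counts in CTNS-KD than in NT2. The part of these shifts in the result was not tested, and in bulk RNA fewer cells of a type and less RNA per cell cannot be told apart. Without the 341 transcripts high in NT relative to NT2, the 4 genes were again called lower in CTNS-KD. With limma in place of edgeR, 1 of the 6 genes, Vcl, was called.

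**Figure D2:**
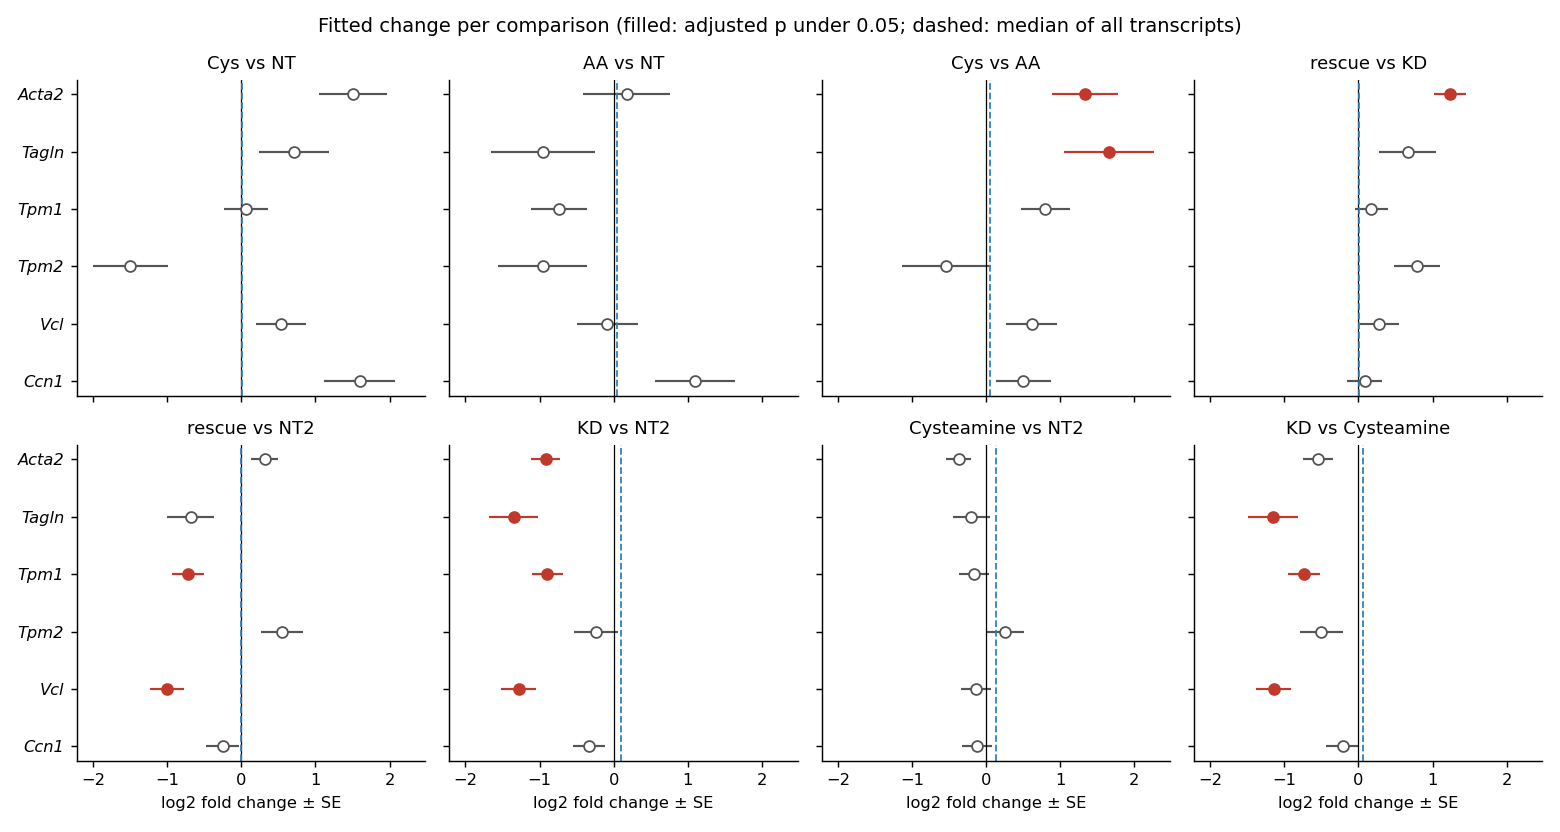
Log2 fold change of each gene in 8 comparisons, with genes down the page, horizontal bars of 1 SE from edgeR, a solid line at 0 and a dashed line at the median of all transcripts; filled points passed an adjusted p of 0.05. Vcl, Tagln, Acta2 and Tpm1 lie below 0 in CTNS-KD against NT2, and Acta2 alone is filled in CTNS-KD-rescue against CTNS-KD, at 1.23.

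CTNS-KD-rescue was compared with CTNS-KD to ask which changes the CTNS plasmid turned back. Acta2 was the only one of the 6 genes called, at 2.35 times its CTNS-KD level. Of all transcripts 0.643% were called higher and 0 lower, and of the 6 genes 1 was called higher. All 6 fitted changes were above 0, with a median of 0.47 against 0.01 for all transcripts.

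Acta2 had 995 and 842 CPM in CTNS-KD-rescue, against 399 and 384 CPM in CTNS-KD. Both rescue libraries lay well above both CTNS-KD libraries, and both also exceeded the NT2 libraries. The log2 fold change was 1.23 ± 0.21 (adjusted p = 0.0096). Without 1 library the adjusted p was 0.14 (CTNS-KD replicate 1), 0.287 (CTNS-KD replicate 2), 0.244 (CTNS-KD-rescue replicate 1) or 0.036 (CTNS-KD-rescue replicate 2), and with limma it was 0.472. Against NT2, Acta2 in CTNS-KD-rescue differed by 0.32 ± 0.18 (adjusted p = 0.2).

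The remaining genes split. Tagln had 218 and 198 CPM in CTNS-KD-rescue, against 158 and 100 CPM in CTNS-KD. The libraries did not overlap, but the log2 fold change of 0.66 ± 0.39 did not pass (adjusted p = 0.519). Tpm2 had 246 and 285 CPM in CTNS-KD-rescue, against 158 and 146 CPM in CTNS-KD, and was higher in both rescue libraries, though not past the test (0.79 ± 0.31, adjusted p = 0.349). Vcl stayed close to its CTNS-KD level, with 531 and 656 CPM in CTNS-KD-rescue against 542 and 420 CPM in CTNS-KD. These libraries overlapped (0.28 ± 0.26, adjusted p = 0.686, 95% interval -0.22 to 0.79). Tpm1 had 1147 and 978 CPM in CTNS-KD-rescue against 911 and 977 CPM in CTNS-KD, where the closest libraries almost met (0.18 ± 0.23, adjusted p = 0.802). Ccn1 had 701 and 780 CPM in CTNS-KD-rescue against 783 and 603 CPM in CTNS-KD, with overlap (0.08 ± 0.24, adjusted p = 0.932).

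Against NT2, 12.9% of all transcripts were called lower in CTNS-KD-rescue and 18.7% higher. Of the 6 genes, 2 were called lower and 0 higher. Vcl, at 531 and 656 CPM in CTNS-KD-rescue and 1200 and 1162 CPM in NT2, was lower in both rescue libraries (-1.0 ± 0.23, adjusted p = 0.00378). The Tpm1 transcript, at 1147 and 978 CPM in CTNS-KD-rescue and 1786 and 1728 CPM in NT2, was likewise lower in both (-0.72 ± 0.22, adjusted p = 0.0178). Leaving out any 1 library of the pair of groups raised the Tpm1 adjusted p to between 0.0552 and 0.15, and without replicate 1 of CTNS-KD-rescue that of Vcl was 0.0644. Tagln (-0.68 ± 0.31, adjusted p = 0.102, but 0.0341 with the 8 libraries of this set only), Tpm2 (0.55 ± 0.28, adjusted p = 0.158) and Ccn1 (-0.25 ± 0.22, adjusted p = 0.43) did not pass. Without the 341 transcripts high in NT, Acta2 (0.52) and Tpm2 (0.74) were called higher as well, so that 4 of the 6 genes were called. CTNS-KD-rescue and CTNS-KD share the NT2 libraries in these comparisons.

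Because Acta2 and Vcl parted, their deposited counts were set against each other within each library, which no scaling between libraries touches. The number of Acta2 counts per Vcl count was 1.88 and 1.28 in CTNS-KD-rescue, 0.736 and 0.913 in CTNS-KD, 0.543 and 0.527 in Cysteamine, and 0.657 and 0.596 in NT2. The rescue libraries were the only ones of the 8 with more Acta2 than Vcl counts. Between the tropomyosins, the number of Tpm2 counts per Tpm1 count was 0.215 and 0.291 in CTNS-KD-rescue, 0.174 and 0.15 in CTNS-KD, 0.147 and 0.129 in Cysteamine, and 0.102 and 0.104 in NT2. Among these 8 libraries the rescue libraries had the most Tpm2 per Tpm1 and the NT2 libraries the least. The starvation set did not follow that order, with 0.101 and 0.093 in Cys, 0.125 and 0.313 in AA, and 0.286 in each untreated NT library. These ratios compare 1 transcript of each gene and were not tested.

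**Figure D3:**
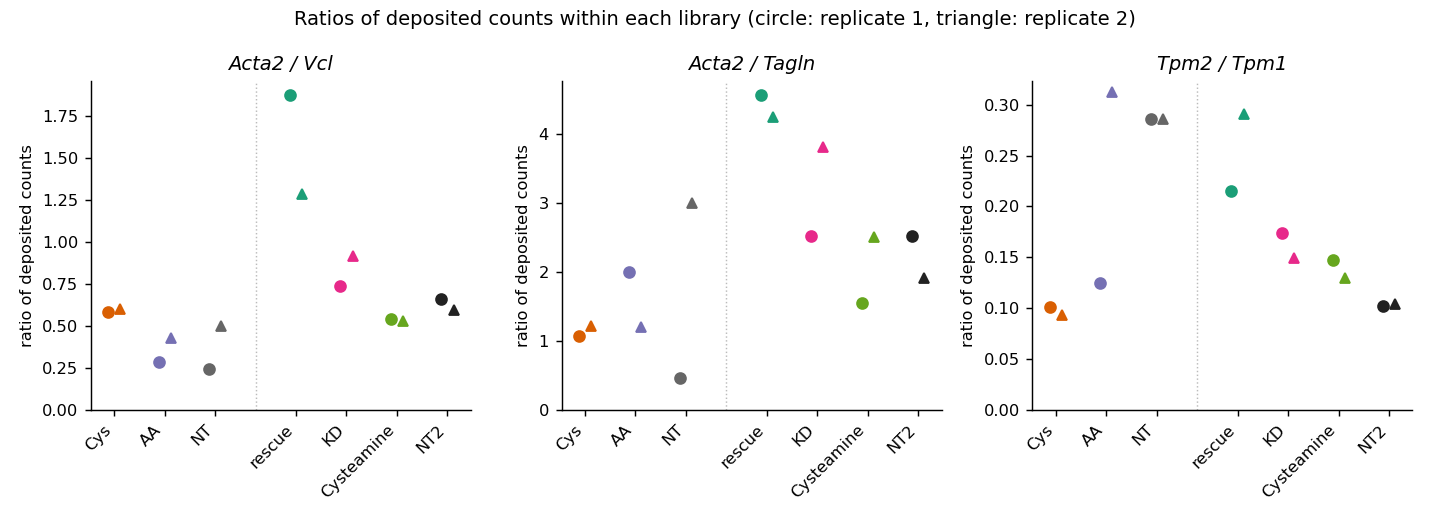
Ratio of deposited counts between pairs of the genes in each library (vertical axis), for Acta2 over Vcl, Acta2 over Tagln and Tpm2 over Tpm1; circles are replicate 1 and triangles replicate 2, and groups run along the horizontal axis. The CTNS-KD-rescue libraries, at 1.88 and 1.28 Acta2 counts per Vcl count, stand above NT2 at 0.657 and 0.596.

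Among the pathway lists, rescue against CTNS-KD gave few calls. None of the 5 focal adhesion or 17 actin and myosin transcripts was called. Of the YAP and TEAD targets, Thbs1 was called higher at 476 ± 131 CPM in CTNS-KD-rescue and 150 ± 20.4 CPM in CTNS-KD (SD, n = 2 each; 1.69 ± 0.28, adjusted p = 0.00806). Of the TGF-β response list, Postn, a matricellular protein of activated fibroblasts, was called higher (3.01 ± 0.71, adjusted p = 0.0316), and of the fibroblast markers Col1a2 (1.63 ± 0.34, adjusted p = 0.0422). The summed fibroblast markers stood at 17501 to 17639 CPM in CTNS-KD-rescue, above CTNS-KD and below NT2. Against NT2, 3 of 5 focal adhesion transcripts were called lower in CTNS-KD-rescue, namely Itgav (-1.21 ± 0.25, adjusted p = 0.00119), Zyx (-1.05 ± 0.25, adjusted p = 0.00379) and Ptk2 (-1.07 ± 0.30, adjusted p = 0.0141). Smtn (-1.04 ± 0.27, adjusted p = 0.00595) was the only one of 17 actin and myosin transcripts called, Thbs1 (-0.74 ± 0.20, adjusted p = 0.0104) the only one of 8 YAP and TEAD targets, and of 4 TGF-β response transcripts Loxl2 was lower (-0.93 ± 0.30, adjusted p = 0.0215) and Postn higher (1.54 ± 0.42, adjusted p = 0.0108). Of the markers, 3 of 6 for fibroblasts were called lower and Ttn was called higher (2.17 ± 0.30, adjusted p = 6.04e-05). Postn and Ttn belong to the transcripts chosen as high in NT relative to NT2.

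**Figure D4:**
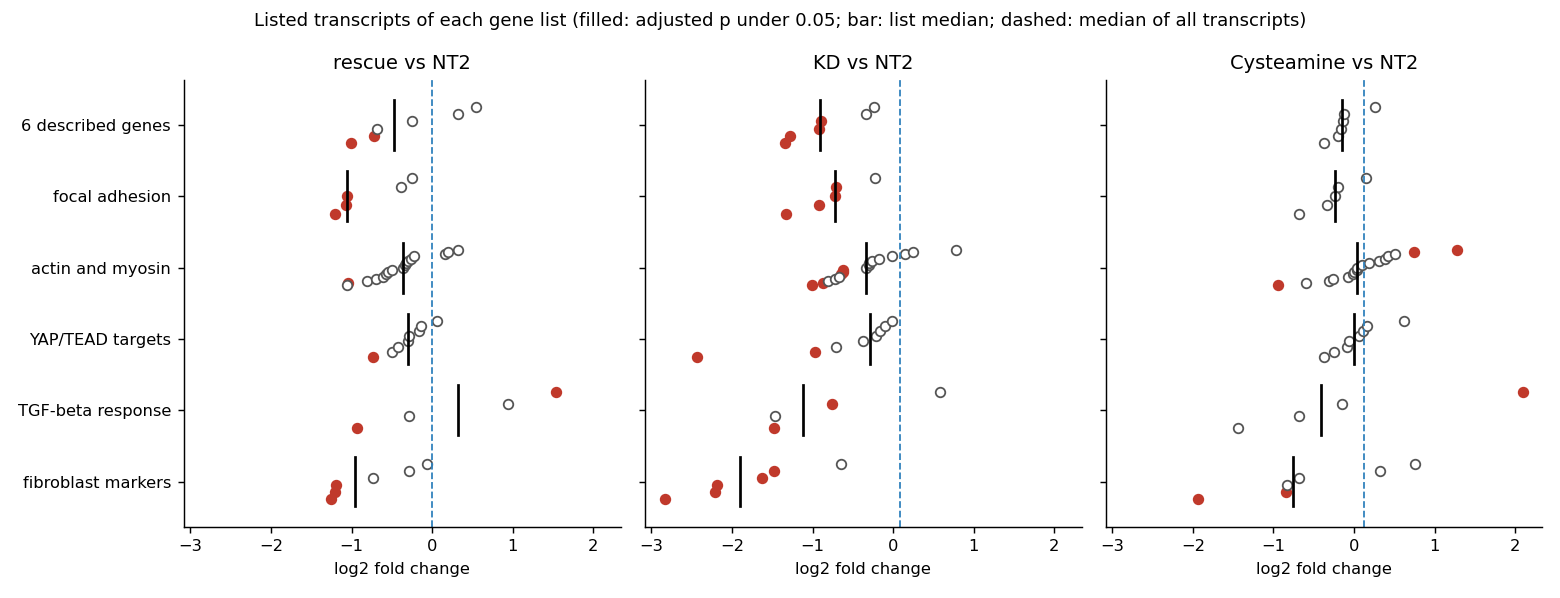
Log2 fold change of every listed transcript of 6 gene lists, 1 point per transcript, in CTNS-KD-rescue, CTNS-KD and Cysteamine, each against NT2 (horizontal axis); filled points passed an adjusted p of 0.05, upright bars are list medians and the dashed line is the median of all transcripts. All 5 focal adhesion transcripts lie below 0 in CTNS-KD, 4 of them filled, and none is filled in Cysteamine.

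Cysteamine was compared with NT2 to ask what depletion of lysosomal cystine by the drug does. No call was made among the 6 genes: 5% of all transcripts were called lower and 5.5% higher, and of the 6 genes 0 by edgeR at the adjusted threshold, 1 at an unadjusted p under 0.05, and 0 by limma or DESeq2. With upper-quartile scaling the split over all transcripts was 44 higher and 99 lower, in place of 77 and 70. The gene at the unadjusted threshold was Acta2, which had 544 and 600 CPM in Cysteamine, against 788 and 692 CPM in NT2. Both Cysteamine libraries were below both NT2 libraries. Its log2 fold change was -0.37 ± 0.17 (adjusted p = 0.175), and it passed when only the 8 libraries of this set were fitted (-0.41, adjusted p = 0.0334) or when the transcripts high in NT were left out (-0.38, adjusted p = 0.0457). Vcl had 1003 and 1139 CPM in Cysteamine against 1200 and 1162 CPM in NT2, slightly lower in both libraries (-0.14 ± 0.20, adjusted p = 0.688, 95% interval -0.53 to 0.26). Tpm1, with 1521 and 1615 CPM in Cysteamine against 1786 and 1728 CPM in NT2, differed by -0.16 ± 0.20 (adjusted p = 0.629). Tagln (-0.20 ± 0.25), Ccn1 (-0.12 ± 0.20) and Tpm2 (0.26 ± 0.26) lay at 1 SE or less from 0.

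The wider lists did move in Cysteamine, in other genes. Of 17 actin and myosin transcripts, 2 were called higher, among them Pfn1 (0.75 ± 0.16, adjusted p = 0.00761), and Smtn was called lower (-0.94 ± 0.22, adjusted p = 0.0111). None of the 5 focal adhesion transcripts and none of the 8 YAP and TEAD targets was called. The collagen genes Col1a2 (-1.94 ± 0.32, adjusted p = 0.00218) and Col3a1 (-0.84 ± 0.25, adjusted p = 0.0444) were called lower, and the summed fibroblast markers were 19224 to 19882 CPM in Cysteamine. Of the 6 fibroblast markers these 2 were called lower and 0 higher, but the fitted changes of 2 others lay above 0. Vim, which was not called, had 3554 and 3874 CPM in Cysteamine, above the 2288 and 2111 CPM of NT2.

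CTNS-KD was set directly against Cysteamine, since both are meant to act on lysosomal cystine. Of all transcripts, 24.7% were called, 14.7% lower and 10.1% higher in CTNS-KD, and of the 6 genes 3 were called lower. With upper-quartile scaling the split over all transcripts was 181 higher and 149 lower, in place of 141 and 205. Vcl had 542 and 420 CPM in CTNS-KD, against 1003 and 1139 CPM in Cysteamine. The groups were far apart, with a log2 fold change of -1.15 ± 0.23 (adjusted p = 0.00351). Tagln had 158 and 100 CPM in CTNS-KD, against 352 and 240 CPM in Cysteamine, which did not overlap (-1.15 ± 0.34, adjusted p = 0.0183). Tpm1, with 911 and 977 CPM in CTNS-KD against 1521 and 1615 CPM in Cysteamine, was also lower in both libraries (-0.73 ± 0.21, adjusted p = 0.0223). Acta2 did not pass (-0.55 ± 0.20, adjusted p = 0.0573) but was called lower when only the 8 libraries of this set were fitted (-0.60, adjusted p = 0.0112), and Tpm2 (-0.50 ± 0.29, adjusted p = 0.219) and Ccn1 (-0.21 ± 0.22, adjusted p = 0.495) did not pass. The calls were not firm: each of the 4 fits without 1 of these libraries lost the Tpm1 call (adjusted p 0.105 to 0.159), and Tagln and Vcl each lost the call in 2 of them, Tagln without Cysteamine replicate 1 or CTNS-KD replicate 2 (0.152 and 0.153) and Vcl without replicate 2 of either group (0.0598 and 0.0606).

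In the same comparison 5 of 17 actin and myosin transcripts were called lower in CTNS-KD. They were Pfn1 (-1.36 ± 0.19, adjusted p = 0.000567), Tagln2 (-1.52 ± 0.26, adjusted p = 0.000976), the cytoplasmic β-actin gene Actb (-0.98 ± 0.31, adjusted p = 0.0355), the actin-severing cofilin gene Cfl1 (-0.59 ± 0.20, adjusted p = 0.0453) and Srf itself (-1.11 ± 0.40, adjusted p = 0.0453). Srf stood at 77.4 ± 45.5 CPM in CTNS-KD, on 6 and 12 counts, and 164 ± 17.6 CPM in Cysteamine (SD, n = 2 each). It had 119 and 131 CPM in NT2 and was not called in CTNS-KD against NT2. Of 5 focal adhesion transcripts 1 was called lower, Itgav (-1.48 ± 0.23, adjusted p = 0.000748). Of 8 YAP and TEAD targets 3 were called lower, Thbs1 (-2.35 ± 0.26, adjusted p = 2.17e-05), the receptor tyrosine kinase gene Axl (-0.82 ± 0.24, adjusted p = 0.0193) and Amotl2, which encodes a YAP-binding angiomotin (-0.86 ± 0.28, adjusted p = 0.0338). The counted Amotl2 transcript is annotated as a nonsense-mediated decay transcript and not as protein coding. Of the 6 fibroblast markers 3 were called lower, among them Vim (-1.40 ± 0.27, adjusted p = 0.00301), while Ttn (0.92 ± 0.28, adjusted p = 0.0289) and Cdh1 (2.04 ± 0.78, adjusted p = 0.0484) were called higher. Both Vim values lay below NT2 in CTNS-KD and above NT2 in Cysteamine. Ttn and Cdh1 belong to the transcripts chosen as high in NT relative to NT2. The part of these shifts in the result was not tested.

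The starvation libraries have lower totals in the count tables, and several values rest on fewer than 10 counts. Their comparison asks how loss of cysteine alone differs from loss of all amino acids. In Cys against AA, 15% of all transcripts were called, 2.57% higher and 12.4% lower, and of the 6 genes 2 were called higher, Acta2 and Tagln. The median log2 fold change of the 6 genes was 0.71, against 0.05 for all transcripts. With upper-quartile scaling the split over all transcripts was 65 higher and 142 lower, in place of 36 and 174.

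Acta2 had 545 and 851 CPM in Cys, against 272 and 264 CPM in AA. Both Cys libraries lay above both AA libraries, on 33 and 34 counts against 4 and 6. The log2 fold change was 1.33 ± 0.44 (adjusted p = 0.0371). Tagln had 512 and 701 CPM in Cys, against 136 and 220 CPM in AA, on 31 and 28 counts against 2 and 5. These libraries did not overlap, with a log2 fold change of 1.66 ± 0.61 (adjusted p = 0.0489). Both calls were lost without the 341 transcripts high in NT (adjusted p = 0.325 for Acta2 and 0.234 for Tagln), without any 1 of these 4 libraries, with DESeq2 (0.0746 for Acta2 and 0.0683 for Tagln), and when only the 6 libraries of this set were fitted (0.128 for Acta2 and 0.0874 for Tagln).

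Tpm1 had 1139 and 1076 CPM in Cys against 544 and 703 CPM in AA, higher in both Cys libraries but not past the test (0.80 ± 0.34, adjusted p = 0.113). Vcl had 941 and 1427 CPM in Cys against 953 and 616 CPM in AA, with overlap (0.62 ± 0.34, adjusted p = 0.252). Ccn1 had 1073 and 776 CPM in Cys against 544 and 747 CPM in AA (0.50 ± 0.37, adjusted p = 0.4). Its lower Cys library was just above its higher AA library. Tpm2 had 116 and 100 CPM in Cys against 68.1 and 220 CPM in AA, on 1 to 7 counts, and no direction could be read from them (-0.54 ± 0.60, adjusted p = 0.688). Of 17 actin and myosin transcripts, Actn1, the actin cross-linker α-actinin 1, was called higher in Cys (1.45 ± 0.48, adjusted p = 0.0361). None of the 5 focal adhesion transcripts or 8 YAP and TEAD targets was called, and of 4 TGF-β response transcripts Postn was lower (-2.41 ± 0.59, adjusted p = 0.0109). The skeletal muscle gene Ttn (-2.05 ± 0.42, adjusted p = 0.00511) and Cdh1 (-2.81 ± 0.91, adjusted p = 0.0366) were also called lower in Cys, and none of the 6 fibroblast markers was called. Postn, Ttn and Cdh1 belong to the transcripts chosen as high in NT relative to NT2. The part of these shifts in the Acta2 and Tagln calls was not tested.

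Against untreated NT cells, no transcript of the 1399 was called after cysteine starvation by edgeR, a background of 0% called, while 230 had an unadjusted p under 0.05, limma called 5 and DESeq2 called 60. Of the 6 genes, 3 had an unadjusted p under 0.05, Acta2, Ccn1 and Tpm2. Acta2 had 545 and 851 CPM in Cys, against 215 and 294 CPM in NT, where the NT values rest on 6 and 3 counts. Both Cys libraries were higher (1.51 ± 0.46, adjusted p = 0.0981). Ccn1 had 1073 and 776 CPM in Cys, against 394 and 98.0 CPM in NT, the last of these from 1 count. The groups did not overlap, and the log2 fold change of 1.60 ± 0.48 did not pass with edgeR (adjusted p = 0.0954) but passed with DESeq2 (adjusted p = 0.0351). Without NT replicate 1 the edgeR value was 3.26 (adjusted p = 0.0423), and without Cys replicate 2 it was 1.78 (adjusted p = 0.0395), while without NT replicate 2 or Cys replicate 1 it did not pass. Tpm2 had 116 and 100 CPM in Cys against 358 and 196 CPM in NT and went the other way (-1.50 ± 0.51, adjusted p = 0.157). Tpm1 differed by 0.06 ± 0.30, Vcl by 0.53 ± 0.34 and Tagln by 0.71 ± 0.47. Tagln in NT was 466 CPM in replicate 1 and 98.0 CPM in replicate 2, on 13 counts and 1 count, so that its untreated level is poorly known.

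Full amino acid starvation gave no call either, at a background of 0% called, with 109 transcripts at an unadjusted p under 0.05, 14 called by limma and 0 by DESeq2. None of the 6 genes had an unadjusted p under 0.05. Acta2 had 272 and 264 CPM in AA against 215 and 294 CPM in NT, which overlapped (0.17 ± 0.59, adjusted p = 0.955, 95% interval -0.97 to 1.32). Ccn1 was higher in both AA libraries, with 544 and 747 CPM in AA against 394 and 98.0 CPM in NT (1.10 ± 0.54, adjusted p = 0.607). Tpm1 (-0.74 ± 0.37), Tpm2 (-0.96 ± 0.60), Tagln (-0.95 ± 0.70) and Vcl (-0.09 ± 0.41) overlapped between the groups. For Tagln the 95% interval ran from -2.32 to 0.42, wide enough to hold its change in CTNS-KD, and for Tpm2 from -2.13 to 0.21.

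NT and NT2 carry the same description, and a difference between them measures what the libraries differ in besides treatment. Of all transcripts, 24.4% were called, 8.36% lower and 16% higher in NT, and of the 6 genes 2 were called lower. With RLE scaling the split over all transcripts was 227 higher and 72 lower, in place of 224 and 117. Acta2 had 215 and 294 CPM in NT, against 788 and 692 CPM in NT2, far apart (-1.64 ± 0.44, adjusted p = 0.00458). Ccn1 had 394 and 98.0 CPM in NT, against 812 and 949 CPM in NT2, also without overlap (-1.50 ± 0.46, adjusted p = 0.0133). Without the 341 transcripts high in NT neither passed (adjusted p = 0.197 and 0.257). Because that set was chosen on the ratio of NT to NT2, the loss of these calls is not independent of the choice. Acta2 lost its call without NT replicate 1 (adjusted p = 0.184) and Ccn1 without NT replicate 2 (adjusted p = 0.0817). Tpm1 (-0.72 ± 0.28), Vcl (-0.56 ± 0.32), Tpm2 (0.77 ± 0.40) and Tagln (0.10 ± 0.45) did not pass. The fitted gap in Acta2 between the untreated groups exceeded its fitted change in CTNS-KD in size, and with NT in place of NT2 as the control the fitted Acta2 change in CTNS-KD was 0.72 and none of the 6 genes was called. Of the lists, Tpm4, Myl6, Actn4 and Ptk2 were called lower in NT, by -1.64 ± 0.47, -1.24 ± 0.41, -0.97 ± 0.36 and -1.39 ± 0.35. Among the markers, Ttn (2.30 ± 0.41, adjusted p = 0.000984) and Cdh1 (3.71 ± 0.96, adjusted p = 0.0123) were called higher in NT. Both belong to the 341 transcripts chosen as high in NT relative to NT2, so their direction here is not independent of that choice.

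The effects of 2 treatments, each against its own untreated group, were then set against each other in 1 fit. For CTNS-KD against NT2 minus Cys against NT, 19.2% of all transcripts were called, 7.15% lower and 12% higher, and of the 6 genes 4 were called lower (Acta2, Tagln, Vcl and Ccn1) and 0 higher. Vcl, for example, was lower in both CTNS-KD libraries than in NT2, while its Cys libraries lay above its NT libraries, and the difference between the effects was -1.82 ± 0.41 (adjusted p = 0.00462). For Cysteamine against NT2 minus Cys against NT, 6.79% were called, 2.36% lower and 4.43% higher, and of the 6 genes Acta2 and Ccn1 were called lower. With upper-quartile scaling that split was 46 higher and 40 lower transcripts, in place of 62 and 33. Since NT and NT2 themselves differed in Acta2 and Ccn1, the treatment and the untreated groups cannot be told apart as the source of those 2 differences. Vcl was also lower in both NT libraries than in NT2, without a call, and Tagln in NT rests on 13 counts and 1 count. For Vcl and Tagln the treatment and the untreated groups cannot be told apart either.

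Across all 14 libraries, with each set of libraries centred on its own mean log2 CPM, Tagln and Tpm1 ran most alike among the 6 genes (Pearson r = 0.848), followed by Tagln with Vcl (0.736) and Tpm1 with Vcl (0.733). Acta2 stood further off, at 0.583 with Tagln and 0.365 with Tpm1, and Tpm2 was at -0.316 with Ccn1. These coefficients are descriptions over 14 libraries that share their totals and scaling. Among 896 other transcripts with a mean count of at least 20, those most like Acta2 were Ptgs1 (r = 0.852), Col1a1 (0.778) and Coro1c (0.756). Those most like Vcl were Lox (0.918), Nuak1 (0.903) and Rai14 (0.900), and those most like Tagln were Hnrnph1 (0.935), Col4a1 (0.928) and Hip1 (0.894). For Tpm1 they were Thbs2 (0.937), Prpf8 (0.925) and Ddb1 (0.883), for Ccn1 Psmb1 (0.934), Eif4h (0.932) and Piezo1 (0.931), and for Tpm2 Nfic (0.715), Ddx23 (0.673) and Dido1 (0.669).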

How the data were processed

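The authors deposited 1 table per library of counts, whole numbers per Ensembl transcript, which were taken here as free of any scaling. Their names say CPM, but the values are whole numbers and no library sums to a fixed total. The tables hold part of each library, so scaled and rounded values need not sum to a fixed total either. Scaling before deposit was therefore not excluded, and the tests and numbers of counts given here rest on its absence. Per the labels' protocols, RNA captured on oligo(dT) beads was size-selected, tailed and amplified. The assembly GRCm39 and the tools STAR 2.7.10a, Bowtie 1.2.3, cutadapt 2.8 and bcl2fastq 2.20.0.422 come from the submitters' processing notes, which assign them no role. No source used here states the counting tool, annotation or strand setting. Symbols came from GENCODE vM21 for 1385 of 1399 transcripts. edgeR 4.0.16 in R 4.3.3 fitted 7 group means to the 14 libraries after TMM scaling, with 7 residual degrees of freedom; tests were two-sided, over 9 comparisons and 2 differences between effects. DESeq2 1.42.0 and limma 3.58.1 were alternatives. The fit was tested on simulated data. The genes and lists were chosen with earlier results of these data known. All 6 genes are named in every comparison, each pathway list names called transcripts (at most 4 with the smallest p), and the 3 most correlated transcripts are named per gene. Myh10 and Srf, beyond that maximum, and marker genes were named after their values were seen. The 341 transcripts high in NT were chosen after earlier results. They have an NT over NT2 count ratio above 2 times the median of that ratio. They are not the same set as the transcripts called between NT and NT2, although Ttn and Cdh1 are in both. Some called list transcripts are not reported here.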

Additional observations from a re-analysis of the deposited data

Results flagged for a closer look

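For some of the genes, the fitted effects of 2 treatments, each against its own untreated group, differed when the difference between them was tested. None of the 6 genes was called in Cys against NT or in Cysteamine against NT2 taken alone. In the effect of CTNS-KD against NT2 minus the effect of Cys against NT, 7.15% of all transcripts were called lower and 12% higher, and of the 6 genes 4 were called lower. The difference was -2.43 ± 0.50 for Acta2 (adjusted p = 0.00163), -2.06 ± 0.58 for Tagln (adjusted p = 0.0135), -1.82 ± 0.41 for Vcl (adjusted p = 0.00462) and -1.93 ± 0.53 for Ccn1 (adjusted p = 0.0102), with log2 values and SE from edgeR. In the effect of Cysteamine against NT2 minus that of Cys against NT, 2.36% were called lower and 4.43% higher, and of the 6 genes 2 were called lower, Acta2 at -1.88 ± 0.49 (adjusted p = 0.0293) and Ccn1 at -1.72 ± 0.52 (adjusted p = 0.0432). Tpm2 lay above 0 in both (1.25 ± 0.59, adjusted p = 0.164, and 1.75 ± 0.57, adjusted p = 0.0752). Acta2 and Ccn1 were also lower in NT than in NT2, so for these genes the difference between effects cannot be told apart from the difference between the untreated groups. Vcl in NT, at 895 and 588 CPM, lay below NT2, at 1200 and 1162 CPM, without a call (-0.56 ± 0.32). Tagln in NT rests on 13 counts and 1 count. The same limit therefore holds for Vcl and Tagln. For Acta2 the Cys libraries, at 545 and 851 CPM, overlapped the NT2 libraries, at 788 and 692 CPM. Single libraries decided some of these calls. For CTNS-KD minus Cys, the edgeR adjusted p was 0.0621 for Ccn1 without Cys replicate 1 and 0.0534 for Tagln without CTNS-KD replicate 2. For Cysteamine minus Cys, the Acta2 call was lost without any 1 library of NT, NT2 or Cysteamine (adjusted p from 0.0602 to 0.182), and the Ccn1 call without NT replicate 2, Cys replicate 1 or any 1 library of NT2 or Cysteamine (adjusted p from 0.0712 to 0.192).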

How the results depend on the processing

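The number of the 6 genes called differed from that reported under some alternatives. With DESeq2 it was 1 in Cys against NT and 0 in Cys against AA. With limma it was 1 in CTNS-KD against NT2, 3 in NT against NT2 and 0 in CTNS-KD-rescue against CTNS-KD, CTNS-KD-rescue against NT2, CTNS-KD against Cysteamine and the Cysteamine effect minus the Cys effect. With RLE scaling it was 1 in Cys against AA and 1 in the Cysteamine effect minus the Cys effect. With a mean count of at least 20 it was 0 in Cys against AA, and 3 in CTNS-KD-rescue against NT2 and in the Cysteamine effect minus the Cys effect, with Tpm2 added in each. With libraries of the same set only it was 0 in Cys against AA, 1 in Cysteamine against NT2, 3 in CTNS-KD-rescue against NT2 (Tagln added) and 4 in CTNS-KD against Cysteamine (Acta2 added), and this fit could not be run for NT against NT2 or the effect differences. Without transcripts high in NT, a set chosen on the ratio of NT to NT2, it was 0 in Cys against AA, NT against NT2 and the Cysteamine effect minus the Cys effect. In the same fit it was 1 in Cysteamine against NT2, 4 in CTNS-KD-rescue against NT2 and 3 in the CTNS-KD effect minus the Cys effect (Tagln lost, adjusted p = 0.0530). With NT2 as the control it was 2 in AA against NT, and with both untreated groups 1 in AA, 2 in CTNS-KD and 1 in CTNS-KD-rescue. With NT as the control it was 2 in Cysteamine, 0 in CTNS-KD and 1 in CTNS-KD-rescue. Upper-quartile scaling and leaving out the 3 transcripts with the highest counts moved none of these counts. Without single replicates the counts ran from 0 to 0 (AA against NT, Cys against AA and Cysteamine against NT2), 0 to 1 (Cys against NT, CTNS-KD-rescue against CTNS-KD and against NT2), 0 to 2 (CTNS-KD against Cysteamine and the Cysteamine effect minus the Cys effect), 1 to 2 (NT against NT2), 3 to 4 (CTNS-KD against NT2) and 3 to 5 (the CTNS-KD effect minus the Cys effect).

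The labels give the replicate numbers no meaning. Deviations of same-numbered libraries correlated from -0.21 to 0.29 between the groups NT, Cys and AA, and from 0.092 to 0.28 between NT2, Cysteamine, CTNS-KD and CTNS-KD-rescue, so not every pair was over 0.1 in either set and the numbers were not taken as pairs. With the replicate block, 1 of the 6 genes was called in Cys against NT (Ccn1, adjusted p = 0.0341), 1 in Cys against AA and 4 in CTNS-KD against Cysteamine (Acta2 added, -0.56, adjusted p = 0.0287), and Acta2 in AA against NT reversed to -0.0050 and Tagln in NT against NT2 to -0.023. A crossed pairing for AA against NT, chosen after seeing the data, called 0 of the genes and 0 transcripts.

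Some single values reversed. In Cys against NT, Tpm1 was -0.019 with DESeq2, -0.10 with a mean count of at least 20 and -0.20 without transcripts high in NT; Vcl in AA against NT was 0.076 with limma and 0.0048 with a mean count of at least 20; Tagln in NT against NT2 was -0.58 with limma, and Tpm1 in the Cysteamine effect minus the Cys effect was 0.035 without transcripts high in NT. With NT2 as the control, Cys gave -0.13 for Acta2, -0.66 for Tpm1 and -0.028 for Vcl, and AA gave -1.47 for Acta2 and -0.40 for Ccn1. With both, Cys gave -0.30 for Tpm1, AA -0.65 for Acta2, Cysteamine 0.45, 0.20, -0.13, 0.14 and 0.63 for Acta2, Tpm1, Tpm2, Vcl and Ccn1, and Ccn1 was 0.42 in CTNS-KD and 0.50 in CTNS-KD-rescue. With NT as the control, Cysteamine gave 1.27, 0.56, -0.52, 0.42 and 1.38 for the same 5 genes, CTNS-KD 0.72 for Acta2 and 1.16 for Ccn1, and CTNS-KD-rescue 0.0030, -0.23 and 1.25 for Tpm1, Tpm2 and Ccn1. Without single replicates, values that reversed ran from -0.17 to 0.70 for Tpm1 in Cys against NT, in AA against NT from -0.14 to 0.31 for Acta2, -1.40 to 0.92 for Tagln and -0.38 to 0.36 for Vcl, from -1.0 to 0.67 for Tpm2 in Cys against AA, in Cysteamine against NT2 from -0.30 to 0.024 for Ccn1 and -0.49 to 0.064 for Tagln, from -0.085 to 0.29 for Ccn1 in CTNS-KD-rescue against CTNS-KD, from -1.77 to 0.47 for Tagln in NT against NT2, and from -0.86 to 0.010 for Tpm1 in the Cysteamine effect minus the Cys effect. The cause was not tested in any of these cases.

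Over all transcripts, the number called ran over the alternatives from 0 to 248 in Cys against NT, 0 to 459 in AA against NT, 18 to 280 in Cys against AA (210 as reported), 0 to 375 in Cysteamine against NT2 (147), 114 to 568 in CTNS-KD against NT2 (431), 1 to 58 in CTNS-KD-rescue against CTNS-KD (9), 107 to 578 in CTNS-KD-rescue against NT2 (441), 4 to 529 in CTNS-KD against Cysteamine (346), 4 to 440 in NT against NT2 (341), 51 to 307 in the CTNS-KD effect minus the Cys effect (268) and 11 to 143 in the Cysteamine effect minus the Cys effect (95). Scaling moved the median of all transcripts by over 0.1 with the upper quartile, to -0.12 in AA against NT, 0.19 in Cys against AA, 0.02 in Cysteamine against NT2 and 0.18 in CTNS-KD against Cysteamine, and with RLE to -0.03 in NT against NT2.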
